A study of Arabidopsis thaliana with 3 samples.

Results

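ARR15, RR16, GID1A, GID1B, RTE1 and ARL are Arabidopsis genes of cytokinin, gibberellin and ethylene signalling, and their transcript ratios were followed during the first hour of an auxin treatment. They were taken by symbol or locus code from the probe-to-gene table, AT1G74890 for ARR15, AT2G40670 for RR16 (also called ARR16), AT3G05120 for GID1A, AT3G63010 for GID1B, AT2G26070 for RTE1 and AT2G44080 for ARL. Each had 1 probe, and together they are 6 of the 12127 named genes with a value on all 3 arrays. All groups were whole Col-0 seedlings, 4 days old and raised in darkness. The treated seedlings were submerged in IAA (indole-3-acetic acid, a natural auxin) at 10 µM in 0.1% ethanol, and the control seedlings in 0.1% ethanol alone, for 20, 40 or 60 minutes. Each of the 3 two-colour arrays set treated against control seedlings of the same time. There was 1 array per time and no replicate, so a value at 1 time carries no error and no test. The seedlings of a plate were harvested together, and fewer cells of a type and less RNA per cell cannot be told apart in such RNA.

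Type-A response regulators are small proteins that cytokinin induces and that damp cytokinin signalling. Auxin is known to activate ARR7 and ARR15 in the early embryonic root. GID1 proteins are the soluble gibberellin receptors, and with gibberellin bound they lead DELLA repressors of growth to destruction. Ethylene receptors repress the ethylene response until the gas binds them. Auxin, gibberellin and ethylene all act on the length of the hypocotyl and root of dark-grown seedlings.

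The values were deposited as log2 ratios, and a log2 ratio of 0.585 is a 1.5-fold difference. Which channel is on top of the ratio is not in the labels. A positive value is likely higher in IAA than in ethanol, since all 7 measured auxin-induced genes used as a check (GH3.1, GH3.3, GH3.4, WES1, LBD16, LBD29 and HAT2) were positive on all 3 arrays, with log2 ratios between 0.52 and 4.02, against 12.9% of all named genes positive on all 3. These 7 were picked with their values known. The spread of all probes differed between the arrays, with a robust SD (scaled median absolute deviation) of 0.165 at 20, 0.221 at 40 and 0.110 at 60 minutes on the log2 scale. A two-colour ratio holds no level of a transcript, so the tissue could not be checked by the levels of its markers. Of the lists of other tissue states, 1 of 8 low oxygen markers was measured, 2 of 6 markers of light-exposed tissue and 2 of 4 root hair markers. The light markers had log2 ratios between -0.044 and 0.26 over the 3 times, the root hair markers between -0.54 and -0.10, and the low oxygen marker AT3G10040 stood at -0.38, -0.43 and -1.03. The part of such tissue differences in the ratios of the hormone genes was not tested.

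Of the 6 genes, only RR16 stood beyond 1.5-fold at any time, and it did so on opposite sides at 20 and 40 minutes. At 20 minutes 1 of the 6, RR16, was beyond 1.5-fold on the negative side, where 1.28% of all named genes were, and 0 of the 6 on the positive side (background 1.24%). At 40 minutes 1 of the 6, again RR16, was beyond it on the positive side, where the background was 5.73%, and 0 on the negative side (background 1.37%). At 60 minutes the count was 0 on either side, beside 2.24% and 0.33% of all named genes on the positive and negative sides. At or beyond 2-fold the count was 0 at each time, beside backgrounds on the positive and negative sides of 0.165% and 0.28% at 20 minutes, 1.2% and 0.115% at 40 minutes, and 0.346% and 0.0247% at 60 minutes.

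ARR15 and RR16 shared their sign at 20 and at 40 minutes, as did GID1A and GID1B, and RTE1 and ARL. At 60 minutes GID1A and GID1B differed in sign, and so did RTE1 and ARL. Other measured genes of the same hormones did not all have the signs of these pairs at 20 and 40 minutes, RR19, SEC and EIN3 among them. ARR15 and RR16 were negative at 20 and positive at 40 minutes, as were 29.2% of all named genes. GID1A and GID1B were negative at both times, as were 17.9%. RTE1 and ARL were positive at 20 and negative at 40 minutes, as were 24.3%. Such sign patterns were common, and with 1 array per time nothing in these counts sets the pairs apart from other genes.

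**Figure D1:**
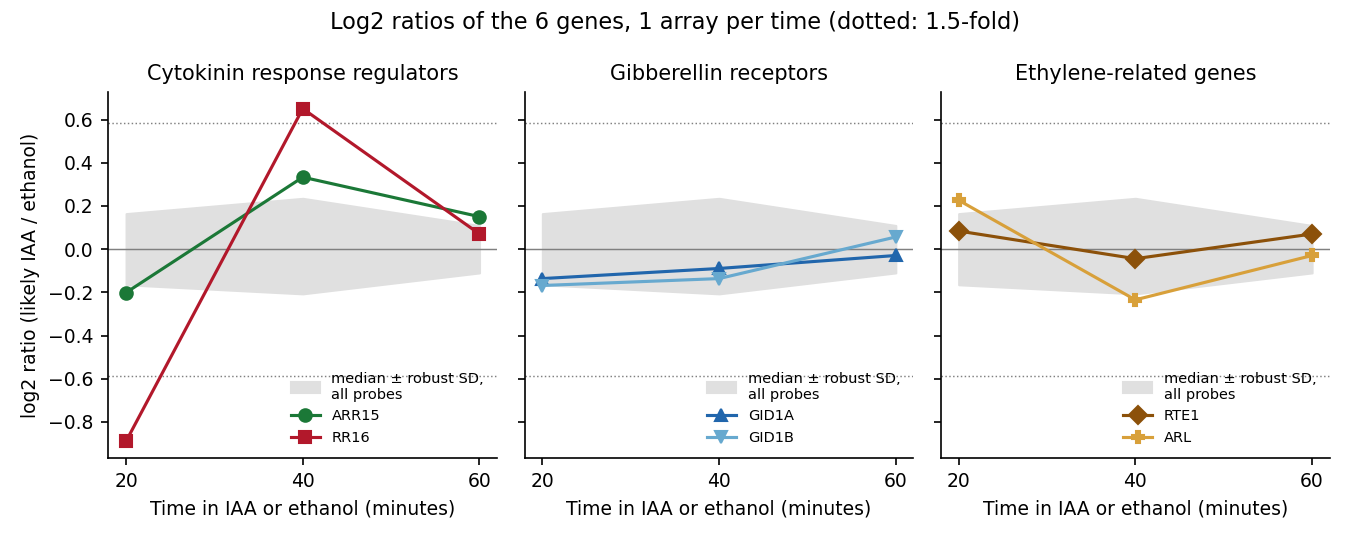
Log2 ratio (likely IAA over ethanol) against time in minutes for the 3 pairs of genes, 1 array per time, with grey bands for the array median ± 1 robust SD of all probes and dotted lines at 1.5-fold. RR16 lies below the lower line at 20 minutes (-0.89) and above the upper line at 40 minutes (0.65), and the other 5 genes stay between the lines.

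RR16, a type-A response regulator of cytokinin signalling, had log2 ratios of -0.89 at 20, 0.65 at 40 and 0.070 at 60 minutes, which are ratios of 0.54, 1.57 and 1.05. It was low at 20 minutes, high at 40 minutes and near 1 at 60 minutes. The 20-minute value lay -5.40 robust SDs from that array's median, and 0.412% of named genes were as low or lower. At 40 minutes it lay 2.88 robust SDs above the median, and 4.76% of named genes were as high or higher. At 60 minutes the distance was 0.642 robust SDs, and 54.5% of named genes were at least as far from 0 on either side.

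The step of RR16 between 20 and 40 minutes was 1.54 on the log2 scale, a 2.91-fold difference of ratios, and 0.346% of named genes had a step as large in that direction. From 40 to 60 minutes its ratio moved back by -0.58. The 20 probes nearest in probe number had log2 ratios between -0.34 and 0.14 at 20 minutes, with a median of -0.029, so RR16 stood below all of them. At 40 minutes they ran from -0.14 to 1.01 with a median of 0.11, and 1 of the 20 was itself beyond 1.5-fold. At 60 minutes they ran from -0.059 to 1.05 with a median of 0.10, and 3 of the 20 were beyond it. Beyond 1.5-fold on the positive side were 5.73% of all named genes at 40 minutes and 2.24% at 60 minutes. The part of probe position in the values of RR16 was not tested. The 4 named genes that flank RR16 in the order of locus codes stood between -0.089 and 0.043 at 20 minutes and between -0.12 and 0.21 at 40 minutes. The value at 40 minutes falls short of 1.5-fold, at 0.47, when the arrays are scaled to the same spread, and at 0.54 when the neighbouring probes' median is subtracted. The value at 20 minutes stayed beyond 1.5-fold under both, at -0.86 and -0.86.

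ARR15, the other measured type-A regulator, had log2 ratios of -0.20, 0.33 and 0.15 at 20, 40 and 60 minutes, or ratios of 0.87, 1.26 and 1.11. Its highest value was at 40 minutes, as for RR16, but it stayed within 1.5-fold at each time. These values lay -1.22, 1.44 and 1.37 robust SDs from the array medians. A value as high or higher at 40 minutes was held by 13.6% of named genes, and one as low or lower at 20 minutes by 14.1%. ARR15 exceeded RR16 by 0.69 on the log2 scale at 20 minutes, stood 0.32 under it at 40 minutes (ARR15 minus RR16 -0.32), and differed from it by 0.080 at 60 minutes. The order of the pair therefore turned between 20 and 40 minutes, without replicates to test it.

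Of the 10 type-A regulators in the list, these 2 were measured under a name. Of the 11 type-B regulators, the DNA-binding activators that switch on type-A genes, 3 were measured. RR18 stood at -0.30, 0.31 and -0.17 over the 3 times, RR19 at -0.32, -0.17 and 0.49, and RR21 at 0.14, 0.39 and -0.044. RR18 had the signs of the type-A pair at 20 and 40 minutes, whereas RR19 was negative and RR21 positive at both. None of the 3 reached 1.5-fold at any time as deposited, but with the arrays scaled to the same spread RR19 did so at 60 minutes, at 0.70. That scaling widens the values of all genes at 60 minutes, and the share of all named genes beyond 1.5-fold after it was not counted. The lists of cytokinin receptors and phosphotransfer proteins, of cytokinin response factors and of cytokinin metabolism had 0 measured members under a name.

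GID1A, a gibberellin receptor, had log2 ratios of -0.14, -0.089 and -0.029 at 20, 40 and 60 minutes, or ratios of 0.91, 0.94 and 0.98. All 3 values were within 1 robust SD of the array median, and 43.9%, 68.9% and 77.6% of named genes lay at least as far from 0 on either side. GID1B, a receptor of the same family, stood at -0.17, -0.14 and 0.057, or ratios of 0.89, 0.91 and 1.04. Both receptors were slightly on the negative side at 20 and 40 minutes, and they parted in sign at 60 minutes, where both were close to 0. GID1A minus GID1B was 0.032, 0.047 and -0.086 on the log2 scale, each less than the robust SD of its array.

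The third receptor of the family, GID1C, was also measured. Its log2 ratios were -0.18, -0.18 and -0.074, so all 3 receptors were negative at 20 and at 40 minutes. The range of the 3 at 20 minutes was -0.18 to -0.14, and none of them reached 1.5-fold at any time. The probe sequences were not used here, and cross-hybridisation between the related receptors was not tested.

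Of 9 DELLA proteins and DELLA regulators, 4 were measured, and 0 reached 1.5-fold. SLY1, the F-box protein that marks DELLA proteins for destruction, stood at -0.15, -0.074 and -0.029. Its relative SLY2 stood at -0.34, 0.11 and 0.057. SPY and SEC, which encode enzymes that attach sugars to DELLA proteins, stood at -0.044, 0.098 and 0.19, and at 0.098, 0.084 and -0.029. SLY1 was negative at each time, as GID1A and GID1C were and as 8.83% of all named genes were. The lists of gibberellin metabolism and of GASA genes had 0 measured members under a name.

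RTE1, a membrane protein that keeps the ethylene receptor ETR1 active as a repressor, had log2 ratios of 0.084, -0.044 and 0.070 at 20, 40 and 60 minutes, or ratios of 1.06, 0.97 and 1.05. All 3 were within 1 robust SD of the array median. RTH, the gene of a related protein, stood at -0.029, 0.029 and 0.00. Both genes thus stayed near a ratio of 1 at every time.

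ARL, or ARGOS-LIKE, belongs to the ARGOS family, whose members promote organ growth and can lower ethylene sensitivity, and ARL itself is known for cell expansion under brassinosteroids. Its log2 ratios were 0.23, -0.23 and -0.029, or ratios of 1.17, 0.85 and 0.98. It was highest at 20 and lowest at 40 minutes, the reverse order of ARR15 and RR16. The first value lay 1.38 robust SDs from the array median and the second -1.13. A step as far down from 20 to 40 minutes as its -0.46 was held by 7.70% of named genes. RTE1 minus ARL was -0.14, 0.19 and 0.10 on the log2 scale at the 3 times.

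Among the other ethylene genes, EIN3, the master transcription factor of the ethylene response, was negative at each time, at -0.089, -0.22 and -0.20. ETP2, an F-box protein that targets EIN2, stood at -0.044, -0.059 and 0.084. They were the 2 measured of 18 genes listed below the receptors. AT1G12010, the single measured code of 17 listed under ethylene biosynthesis, has no symbol in the tables used here and stood at -0.51, -0.20 and -0.015. Neither EIN3 nor ETP2 nor AT1G12010 reached 1.5-fold.

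Over the 13 lists of the 3 pathways, 18 of 146 codes were measured, the 6 genes and 12 others. At 20, 40 and 60 minutes 0 of the 12 others were beyond 1.5-fold as deposited. Of the 12127 named genes 305, 861 and 312 were, on either side, so a count of 0 among 12 is near that background. The medians of the 12 others were -0.12, -0.015 and -0.022. The medians of the 6 genes were -0.15, -0.067 and 0.063, beside 0.00, 0.029 and 0.014 over all named genes. At 20 minutes 4 of the 6 and 10 of the 12 others were negative, beside 48.7% of all named genes. The median distance from 0 of the 6 was 0.18 at 20, 0.19 at 40 and 0.063 at 60 minutes, and that of all named genes was 0.11, 0.15 and 0.074. These medians over a handful of genes carry no error.

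**Figure D2:**
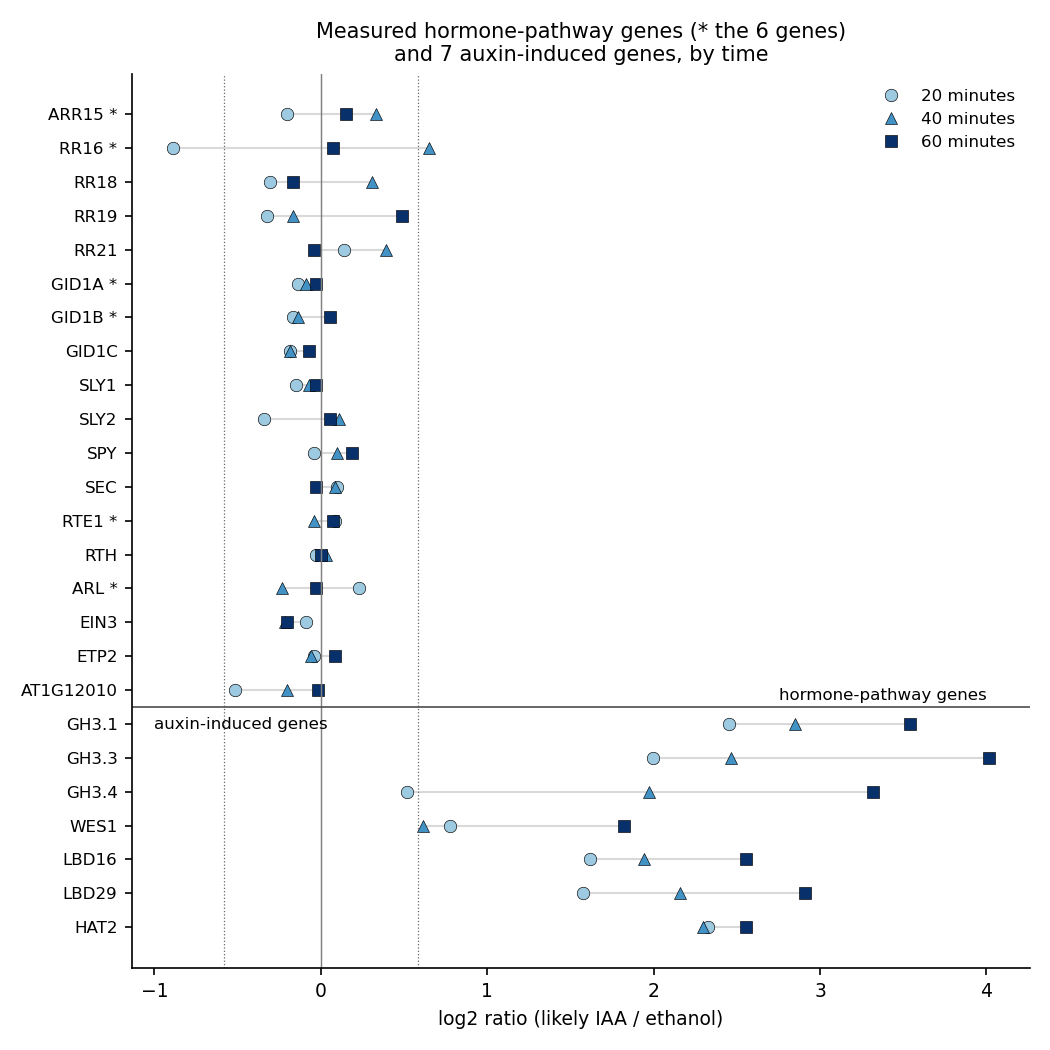
Log2 ratios (horizontal axis, likely IAA over ethanol) of the 18 measured hormone-pathway genes, with the 6 genes starred, above 7 auxin-induced genes, with 1 symbol per time and dotted lines at 1.5-fold. The pathway genes lie between -0.89 and 0.65, and the auxin-induced genes between 0.52 and 4.02.

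The mean log2 ratio over the 3 arrays asks whether a transcript's ratio differed from 1 on average over the 3 times. It does not ask whether the sign was the same at each time. RR16 had a mean of -0.056 ± 0.78, and ARR15 one of 0.094 ± 0.27 (SD over 3 time points). GID1A stood at -0.085 ± 0.054 and GID1B at -0.083 ± 0.12. RTE1 stood at 0.037 ± 0.070 and ARL at -0.012 ± 0.23. The sign of the means of ARR15, RR16, GID1B and ARL turned under at least 1 of the alternatives tried, while GID1A stayed negative and RTE1 positive under all 8.

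None of the 6 passed limma's test of the mean against 0 over 21859 genes and unnamed probes (Benjamini-Hochberg adjusted p = 0.9999 for each), and 0 of the 6 had an unadjusted p under 0.05. The test called 0.0869% of all genes and probes as positive and 0% as negative, and an unadjusted p under 0.05 was held by 3.52% as positive and 1.06% as negative, so that a count of 0 among few genes is near the background. Of the 12 other pathway genes 0 passed, and 0 had an unadjusted p under 0.05. The spread in this test is that between time points and holds change over time as well as error. It is widest for RR16, whose values of opposite sign cancel in the mean. The 95% interval of the mean ran from -0.28 to 0.11 for GID1A, from -0.30 to 0.13 for GID1B, from -0.16 to 0.23 for RTE1 and from -0.30 to 0.27 for ARL. It ran from -0.22 to 0.41 for ARR15 and from -0.81 to 0.69 for RR16, so for RR16 a mean beyond 1.5-fold on either side lies within the interval.

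**Figure D3:**
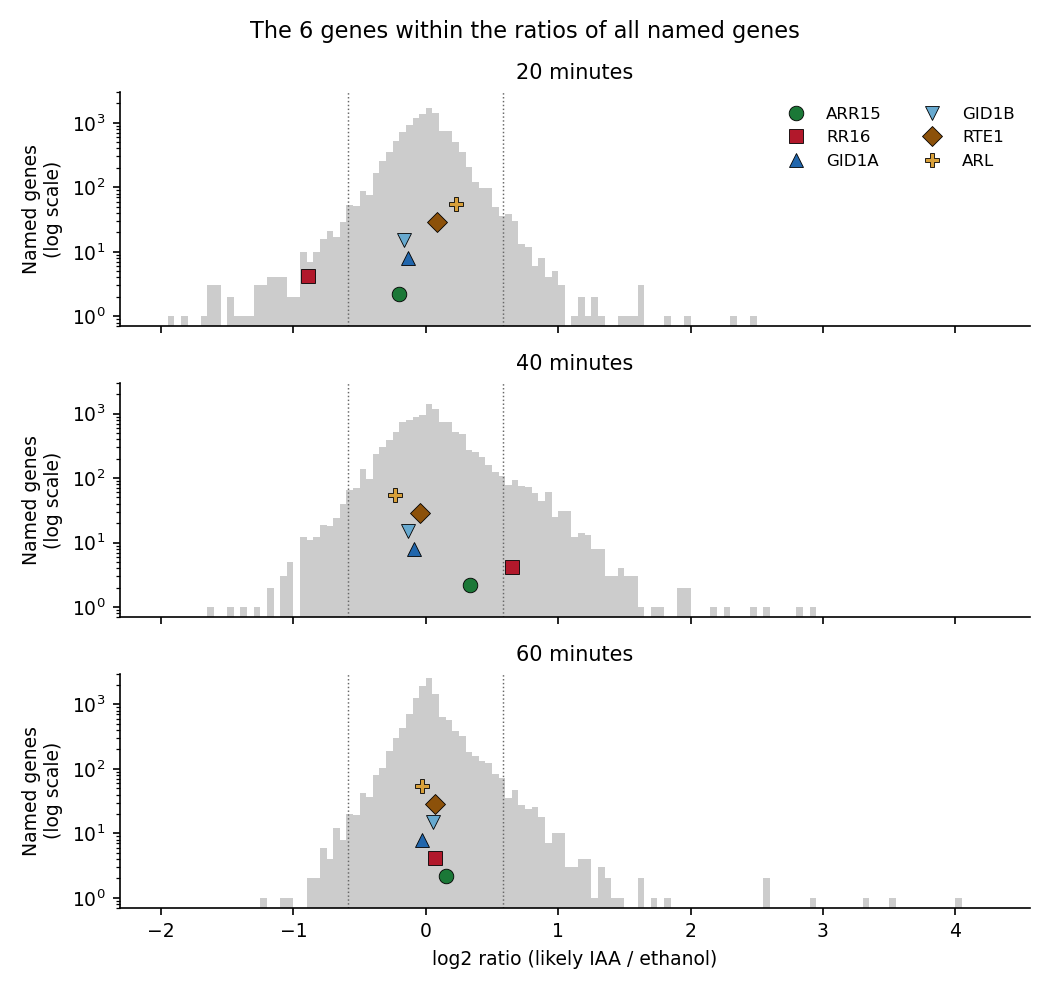
Histograms of the log2 ratios of all 12127 named genes at 20, 40 and 60 minutes (vertical log axis, number of genes per bin of the horizontal axis), with 1 symbol per gene at its own log2 ratio; the height of a symbol has no meaning, and dotted lines mark 1.5-fold. RR16 sits in the left tail at 20 minutes and on the right shoulder at 40 minutes, and all 6 genes lie near the centre at 60 minutes, between -0.029 and 0.15.

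Out of 12071 named genes with 1 probe, those within a Euclidean distance of 0.2 over the 3 log2 ratios numbered 4 for RR16, 503 for ARR15, 1077 for ARL, 1660 for GID1B, 2551 for GID1A and 3018 for RTE1. Most genes lie near 0, so these counts follow how far a gene stands from 0 and do not measure how common the shape of its pattern is. The nearest genes to RR16 were AT5G37470 (-0.92, 0.60 and -0.015 over the 3 times), AT5G37440 (-0.79, 0.67 and -0.015) and AT1G31250 (-0.79, 0.61 and 0.15), at distances of 0.101, 0.135 and 0.136. The nearest to ARR15 were AT3G29635, AT5G28720 and AT2G21860, at distances of 0.013 to 0.024. The nearest to ARL were AT5G19090, AT5G04080 and SHB1, at 0.029 to 0.033. AT3G12040 had exactly the deposited values of GID1A, followed by AT1G53400 and AT3G02700, and AT2G04230 exactly those of GID1B, followed by AT3G58630 and AT1G69980. The nearest to RTE1 were AT1G05140, AT1G62860 and ATOEP16-4. These likenesses rest on 3 arrays, and the deposited ratios are rounded to steps of 0.01, so equal values are common near a ratio of 1.

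Named genes at least 1.5-fold negative at 20 and at least 1.5-fold positive at 40 minutes numbered 37, which is 0.305% of all named genes, and RR16 was 1 of them. Of the 37, 21 were as low as RR16 or lower at 20 minutes and 31 were as high or higher at 40 minutes, so RR16 lay on the mild side of the set, mainly at 40 minutes. At 60 minutes the 37 had a median log2 ratio of 0.12, with a range of -0.40 to 1.36, beside 0.070 for RR16.

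**Figure D4:**
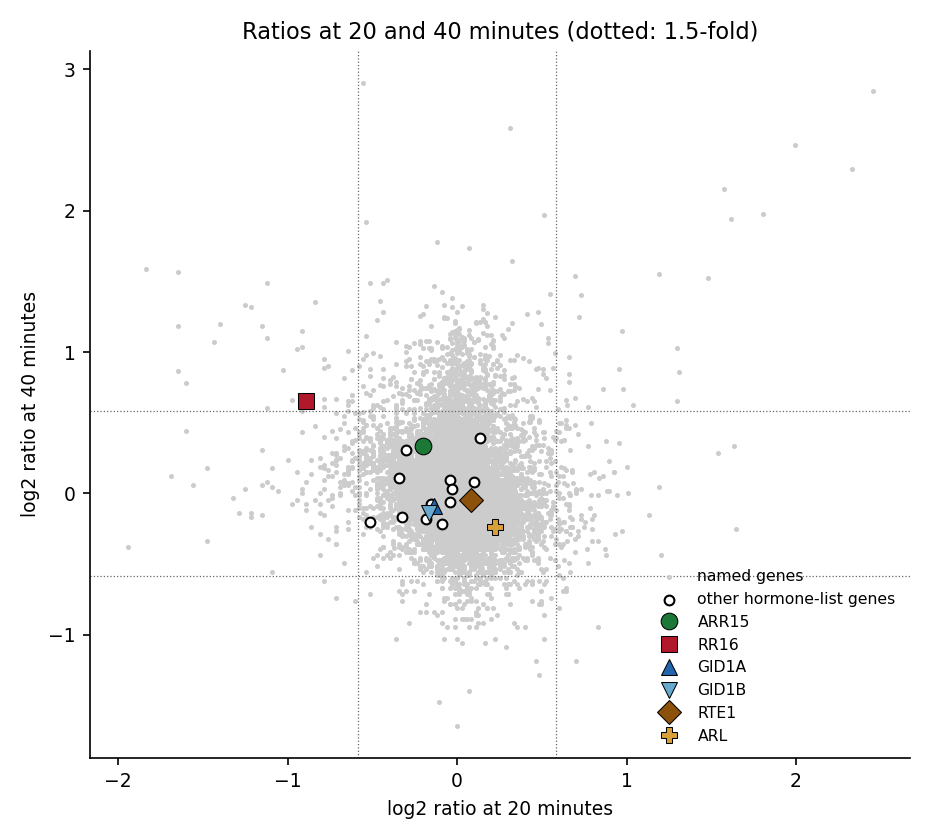
Log2 ratio at 40 minutes against that at 20 minutes for all named genes (grey points), the 12 other hormone-pathway genes (open circles) and the 6 genes (coloured symbols), with dotted lines at 1.5-fold. RR16 (-0.89, 0.65) lies in the upper left corner outside both lines, and the other 5 genes and the 12 open circles lie inside the central square.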

How the data were processed

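The deposited values are log2 ratios of the 2 channels of each array, in 1 table of 21939 probes by 3 arrays. The base was inferred here: as powers of 2, the values give ratios in whole steps of 0.01. The sources used here do not give the dyes, the array model, the background correction or the normalization. No spot intensities were used, so signal over background and levels are unknown. Precision is limited by the number of arrays. Of the probes, 12195 had 1 gene in the platform annotation, with names brought up to date from RefSeq (assembly TAIR10.1), and 1 with several genes was left unnamed. Probes of 1 gene were averaged, which touched none of the 6 genes.

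The 6 genes and all lists were chosen with earlier results of these data known. Locus codes came from memory. RefSeq held each of the 171, with a matching symbol for 170. The genes named are the 6, the measured genes of the pathway lists and the 3 named genes nearest to each of the 6. The mean over the arrays was tested with limma 3.58.1 in R 4.3.3 (intercept, empirical Bayes, two-sided). The labels do not say whether seedlings of different times were separate cultures. On simulated data (21859 genes, the same change at all times), recovery was 12% for a log2 change of 0.585, 52% for 1 and 90% for 2. The simulated noise took each gene's SD over the 3 time points, which holds change over time as well as error. It changed 200 genes over all sizes, and 4 unchanged genes were called. Alternatives changed the scaling, centring, weights, arrays, features, probe position, fold threshold and measure of likeness.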

Additional observations from a re-analysis of the deposited data

Results flagged for a closer look

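RR16 was beyond 1.5-fold on both sides, negative at 20 and positive at 40 minutes. The step between these times was 1.54 on the log2 scale. The 40-minute value was 0.47 with the arrays scaled to the same spread and 0.54 with neighbouring probe numbers subtracted, so that RR16 no longer met this condition under either, and it still met it with the arrays centred. Each time has a single array, and this difference was not tested. None of the other 5 genes met that condition.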

How the results depend on the processing

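None of the 6 genes passed the test of the mean under any of the 8 alternatives. With scaling, and without any 1 of the arrays, the test called 0 of all 21859 genes and probes. A count of 0 among the 6 therefore adds nothing under those settings. With named genes alone the test called 2 of 12127. Leaving out 1 array at a time, the mean log2 ratio ran from -0.025 to 0.24 for ARR15, from -0.41 to 0.36 for RR16, from -0.11 to -0.059 for GID1A, from -0.15 to -0.040 for GID1B, from 0.013 to 0.077 for RTE1 and from -0.13 to 0.099 for ARL. ARR15 turned sign without the 40-minute array, RR16 without the 20-minute array and ARL without the 40-minute array; fewer samples enter those fits. With estimated array weights (0.396, 0.377 and 6.70 for the arrays in order of time) RR16 stood at 0.049 and GID1B at 0.035. ARR15 stood at 0.14 under these weights, with a limma unadjusted p of 0.044 and an adjusted p of 0.15. An unadjusted p under 0.05 was held there by 3975 positive and 2537 negative of 21859 genes and probes. ARL stood at 0.0026 with the arrays scaled to the same median absolute deviation and at 0.035 with neighbouring probe numbers subtracted. Under that scaling the count of the 6 beyond 1.5-fold was 0 at 40 minutes, and 1 of the 12 other pathway genes, RR19, was beyond it at 60 minutes. The scaling shrinks the values of all genes at 40 minutes and widens them at 60 minutes. The shares of all named genes beyond 1.5-fold after scaling were not counted, so whether these changes are particular to the pathway genes is not known. At 2-fold the counts of the 6 were 0 at 20 and 40 minutes. The cause of these changes was not tested. The genes beyond 1.5-fold on opposite sides at 20 and 40 minutes, 37 as deposited, numbered 22 with scaling, 35 with centring and 26 with neighbours subtracted, settings chosen after seeing the data, and RR16 dropped out under the first and the last. Correlation in place of distance kept 1 of the 3 nearest genes for GID1A and for GID1B and 0 for the others. Over all genes and probes the calls, 19 positive and 0 negative as deposited, numbered 0 with scaling and 2057 and 794 with array weights. Each ratio already pairs treated and control seedlings of 1 time, and no further replicate block could be fitted.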

Other observations

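The following counts were made after the values were seen. Of the 3 genes nearest to RR16 in pattern, 2 carry codes of 1 stretch of chromosome 5. All 8 named genes from AT5G37400 to AT5G37470 were negative at 20 minutes, between -1.40 and -0.015, and positive at 40 minutes, between 0.40 and 1.49, and at 60 minutes they stood between -0.22 and 0.19. The probe numbers of these 8 run from 528697 to 529418 in equal steps of 103, and that of RR16, 522682, is outside this run. The nearest named codes on either side, AT5G37380 and AT5G37490, have probe numbers 533934 and 534037. That step is also 103, so the spacing alone does not set the 8 apart. Their probe numbers do form a separate run, since those of the other named AT5G37 genes lie between 531668 and 537540. At 20 and 40 minutes AT5G37380 stood at -0.015 and -0.14, and AT5G37490 at 0.098 and 0.51. Places of probes on the array were not used, so the stretch of chromosome and the place of the probes cannot be told apart, and the part of probe position in the shared pattern was not tested. Of the 50 named genes with AT5G37 codes, 4 (8%) were among the 37 beyond 1.5-fold on RR16's opposite sides at 20 and 40 minutes. The 37 are 0.305% of all named genes. These 4, AT5G37430, AT5G37440, AT5G37460 and AT5G37470, all belong to the run of 8. Chromosome 1 codes were carried by 24 of those 37, or 64.9%, beside 25.8% of all named genes. RR16 is 1 of 2 with a chromosome 2 code.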
